A study of Mus musculus with 14 samples.

Results

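The NF-κB subunits and inhibitors described here are Nfkb1, Nfkb2, Rela, Relb, Nfkbia, Nfkbie, Nfkbiz, Bcl3 and Tnfaip3. They were found by symbol among the 13866 genes of a count table from mouse brain. Of the 10 symbols looked for, 9 were listed, and Rel was not analysed here. All 9 passed the filter on low counts and were tested in a fit of 11852 genes. Bcl3 and Nfkbiz did not pass it in the PBS groups alone and were tested only through groups with CBE, where they are higher, so counts and medians are also given for the other 7. The brains came from 14 mice of 19 days, with 1 library per mouse and no pooling. WT mice were C57BL/6JOlaHsd. MyTrMaSt null mice lack Myd88, Trif (Ticam1), Mavs and Tmem173 (STING), adaptors of pattern recognition receptors, in every cell of the body, and their background strain is not given in the sources used here. Mice of both genotypes received daily intraperitoneal injections of PBS or of 100 mg/kg body weight conduritol B-epoxide (CBE), a compound that permanently blocks acid β-glucosidase. Mutations in the gene of this lysosomal enzyme cause Gaucher disease. The groups were WT + PBS (n = 3), WT + CBE (n = 3), MyTrMaSt + PBS (n = 3) and MyTrMaSt + CBE (n = 5). None of the groups carries an engineered cell-type-specific change, so the loss of the adaptors is not limited to brain cells.

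NF-κB is a family of dimeric transcription factors that wait in the cytoplasm bound to inhibitors of the IκB family. Toll-like, tumor necrosis factor and interleukin-1 receptors activate the IKK complex, which marks the inhibitors for destruction and frees the dimers to enter the nucleus. An alternative route, used by receptors such as the lymphotoxin β receptor, processes the Nfkb2 product and releases dimers that contain RelB. Several genes of subunits and inhibitors are themselves NF-κB targets, which gives the pathway a negative feedback. MyD88 and TRIF carry the signal of the Toll-like receptors to IKK, and MAVS and STING can also activate NF-κB. In the brain the pathway is best known from activated microglia, astrocytes and endothelial cells.

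A binding site for NF-κB, a κB site, is a stretch of 10 bases that is rich in G at one end and in C at the other. Promoter sequences of 250 bases before to 50 bases after the gene start, from RefSeq (GRCm38.p6), were given for 6 of the 9 members, and Nfkb1, Relb and Nfkbiz had no entry. The κB consensus was searched on both strands. It was present for Nfkb2, Nfkbia, Nfkbie, Bcl3 and Tnfaip3 and was not found in the window of Rela. Over all 32851 windows of the genome 6.93% held such a match. All 9 sites found are shown because their genes are members whose levels are followed in the rest of the text, with the matched bases in capitals and the sequence written along the strand of the gene. A match is a description of these letters and was not tested for binding.
Nfkb2, chr19:46304689-46304717, + strand: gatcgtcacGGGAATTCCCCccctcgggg
Nfkb2, chr19:46304716-46304745, + strand: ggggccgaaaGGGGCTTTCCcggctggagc
Nfkb2, chr19:46305449-46305478, + strand: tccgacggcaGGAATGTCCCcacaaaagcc
Nfkb2, chr19:46305695-46305724, + strand: tggtattttcGGGACTTTCCtaagcagcac
Nfkbia, chr12:55492657-55492686, − strand: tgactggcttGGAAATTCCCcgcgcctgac
Nfkbie, chr17:45555584-45555613, + strand: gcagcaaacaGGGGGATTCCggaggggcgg
Bcl3, chr7:19822734-19822763, − strand: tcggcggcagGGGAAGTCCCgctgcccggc
Tnfaip3, chr10:19015516-19015545, − strand: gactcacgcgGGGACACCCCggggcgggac
Tnfaip3, chr10:19015403-19015432, − strand: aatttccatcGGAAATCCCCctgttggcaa
Distances are from the RefSeq start of the window, which can differ from the gene bounds given for each member below, since those are from GENCODE M21. The matched bases of Nfkbia begin 29 bases before its start, those of Nfkbie 106 bases before and those of Bcl3 2 bases after. Nfkb2 had 3 windows for different starts, and its 4 sites begin 39 and 11 bases before one start and 236 bases before and 10 bases after another. The first of them holds 2 overlapping matches, one on each strand. Tnfaip3 had 2 windows, and its 2 sites begin 125 and 12 bases before the start of one of them. That start lies inside the GENCODE bounds of the gene.

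Expression was measured by a bulk form of MARSseq, which reads the 3′ ends of transcripts, so a count follows the number of transcripts and not their length. Library totals ran from 1290616 to 3704691 counts, of which 235 to 1250 belonged to the 9 members. Levels are given as CPM, counts relative to library sizes scaled by TMM. WT + PBS replicate 1 was the library with the fewest counts and had a scaling factor of 0.861 against 0.957 to 1.03 in the others. It also stood apart from its group, with a chi-square per degree of freedom of 20.2 and 18.1 against the other WT + PBS libraries over all genes, where all other pairs of a group were at 2.31 to 7.20. It enters every WT + PBS value, and without it the same 7 members were called in WT mice. Sex was not balanced. Xist, which is transcribed in females, had no counts in WT + PBS, 47, 1 and 30 counts in the WT + CBE libraries, 32 to 46 in MyTrMaSt + PBS, and 18 to 39 in 4 of the MyTrMaSt + CBE libraries with none in replicate 4. Markers of neurons, oligodendrocytes and astrocytes were detected in every group, as the label of brain requires. Of the deleted genes, Myd88 was at 13.4 ± 3.61 CPM (SD, n = 3) in WT + PBS and at 3.94 ± 0.73 CPM (n = 3) in MyTrMaSt + PBS. Ticam1 (6.86 ± 1.90 and 4.73 ± 1.86 CPM) and Mavs (7.86 ± 1.79 and 5.67 ± 2.85 CPM) overlapped between these groups, and Tmem173 was at 1.69 ± 0.79 CPM in WT + PBS and at 6.09 ± 1.02 CPM in the libraries labelled MyTrMaSt + PBS. The deleted parts are not given in the sources used here, and 3′ reads from outside them are still counted, so these levels check the labels for Myd88 at most.

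In WT mice, CBE raised 7 of the 9 members. Bcl3, a nuclear IκB protein that works as a coactivator, changed most, from 1.09 ± 0.18 CPM (SD, n = 3) to 18.4 ± 1.24 CPM (n = 3). Nfkb2 rose 4.21-fold, Tnfaip3 2.68-fold, Nfkbie 2.64-fold, Relb 2.36-fold, Nfkbia 2.08-fold and Nfkb1 1.80-fold. Nfkbiz and Rela did not pass the test. None of the members fell, against 3.89% of all tested genes called lower. The test was the edgeR quasi-likelihood F test with Benjamini-Hochberg adjustment over the 11852 tested genes, and a gene is called at an adjusted p below 0.05 and is a DEG when it also differs at least 2-fold. Of all tested genes 6.7% were called upregulated in this comparison and 5.2% were upregulated DEGs, against 7 and 6 of the 9 members. The median log2 fold change of the members was 1.40, and that of all tested genes was -0.02. For 8 members the 3 WT + CBE libraries lay wholly above the 3 WT + PBS libraries, which held for 15.1% of all tested genes. Among the 7 members other than Bcl3 and Nfkbiz, 6 were called higher, 6 did not overlap and the median was 1.24.

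In MyTrMaSt mice, CBE raised 3 of the 9 members, which were Bcl3, Nfkb2 and Nfkbia. Bcl3 rose 7.42-fold, Nfkb2 2.18-fold and Nfkbia 2.0-fold, and all 3 were DEGs. Of all tested genes 5.32% were called upregulated here and 3.23% were upregulated DEGs. The median log2 fold change of the members was 0.61, and that of all tested genes was 0.01. The 5 MyTrMaSt + CBE libraries lay wholly above the 3 MyTrMaSt + PBS libraries for Bcl3, Nfkb2, Nfkbia and Relb, which held for 11.8% of all tested genes. Without Bcl3 and Nfkbiz, 2 of 7 were called, 3 of 7 did not overlap and the median was 0.23. The number of genes called in either direction, 919, was 2246 without WT + PBS replicate 1 and 437 without MyTrMaSt + PBS replicate 3, so these shares move with single libraries. The brains are bulk samples, so more cells of a type and more RNA per cell cannot be told apart in any of these values.

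**Figure D1:**
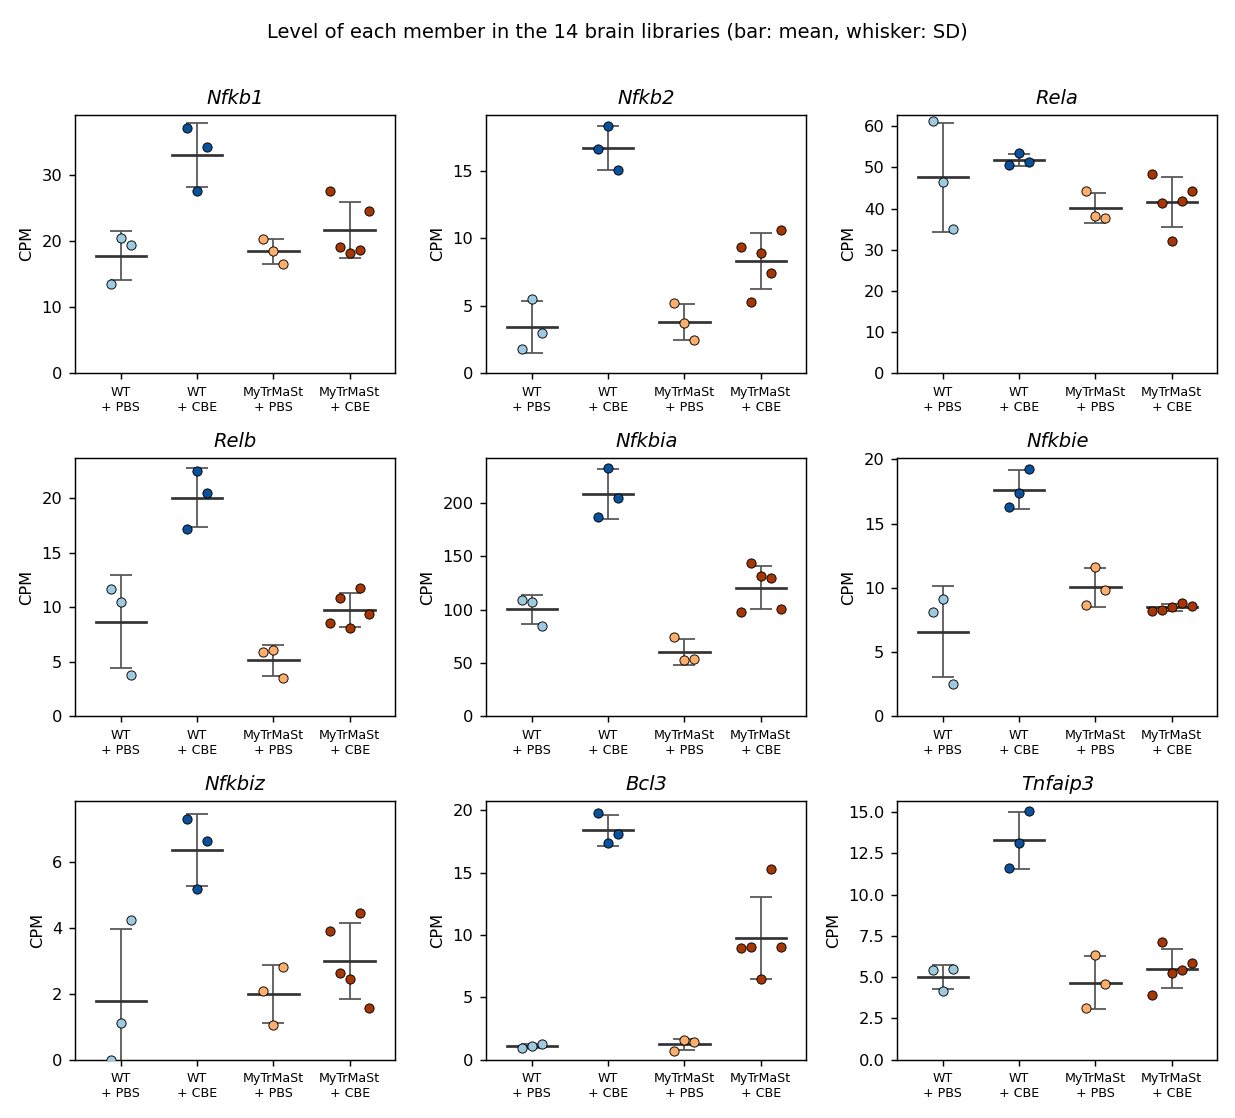
Level of each member (CPM on TMM-scaled library sizes, linear axis from 0) in the 14 libraries, with points for libraries, bars for group means and whiskers for SD. The WT + CBE libraries stand above the WT + PBS libraries in every panel but that of Rela, and the MyTrMaSt + CBE libraries stand above the MyTrMaSt + PBS libraries for Nfkb2, Relb, Nfkbia and Bcl3.

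Nfkb1 (chr3:135584655-135691547, − strand, mm10) encodes a precursor whose processed form pairs with RelA in the classical NF-κB dimer. Its level was 13.5, 20.4 and 19.4 CPM in the WT + PBS libraries and 37.2, 27.7 and 34.3 CPM in the WT + CBE libraries. The WT groups did not overlap, and the log2 fold change was 0.85 ± 0.22 (SE; adjusted p = 0.0183). In MyTrMaSt mice it was 20.4, 18.5 and 16.6 CPM after PBS and 27.7, 19.2, 18.2, 18.7 and 24.7 CPM after CBE. Here 3 of the 5 MyTrMaSt + CBE libraries lay within the range of the MyTrMaSt + PBS libraries, and the log2 fold change was 0.23 ± 0.19 (adjusted p = 0.501). The call in WT mice was lost without WT + CBE replicate 1 (adjusted p = 0.0922) and without WT + CBE replicate 3 (adjusted p = 0.0502).

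Rela (chr19:5637483-5648130, + strand, mm10) encodes the subunit that activates transcription in the classical dimer. It was at 61.4, 46.4 and 35.0 CPM in WT + PBS and at 50.6, 53.5 and 51.2 CPM in WT + CBE. The WT + CBE libraries all lay inside the range of the WT + PBS libraries, and the log2 fold change was 0.15 (95% interval -0.27 to 0.57; adjusted p = 0.704). In MyTrMaSt mice Rela was at 44.2, 38.3 and 37.7 CPM after PBS and at 48.3, 41.3, 32.0, 41.8 and 44.2 CPM after CBE. The groups overlapped, and the log2 fold change was 0.05 (95% interval -0.32 to 0.42; adjusted p = 0.890). Neither interval reaches a 1.5-fold change.

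Nfkb2 (chr19:46304320-46312385, + strand, mm10) encodes the precursor of the alternative route. In WT + PBS it was at 1.80, 5.53 and 2.95 CPM, from 2 to 20 counts, and in WT + CBE at 16.6, 18.3 and 15.1 CPM. The WT groups were far apart, and Nfkb2 rose by 2.07 ± 0.35 on the log2 scale (adjusted p = 0.000458). In MyTrMaSt mice the levels were 5.18, 3.70 and 2.47 CPM after PBS and 9.35, 5.26, 8.92, 7.39 and 10.6 CPM after CBE. The lowest MyTrMaSt + CBE library, replicate 2, was just above the highest MyTrMaSt + PBS library, and the log2 fold change was 1.12 ± 0.32 (adjusted p = 0.0386). That call was lost on leaving out any of 8 of the 14 libraries, with adjusted p values of up to 0.20, the largest without MyTrMaSt + PBS replicate 3. Exons of Nfkb2 overlap those of Psd and AC114539.1 on the opposite strand, and whether the counting used strand is not given in the sources used here. Psd fell with CBE in WT mice, by 1.16 on the log2 scale (adjusted p = 0.0387). Whether reads of Psd or AC114539.1 enter the counts of Nfkb2 was not tested.

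Relb (chr7:19606217-19629438, − strand, mm10) encodes the partner of the Nfkb2 product. Its level was 11.7, 10.5 and 3.80 CPM in WT + PBS and 17.2, 22.5 and 20.5 CPM in WT + CBE. The WT groups did not overlap although WT + PBS replicate 3 was well below the other WT + PBS libraries, and the log2 fold change was 1.24 ± 0.31 (adjusted p = 0.0165). Leaving out WT + PBS replicate 3 gave 0.87 (adjusted p = 0.0622), and leaving out WT + CBE replicate 2 gave 1.15 (adjusted p = 0.0729). In MyTrMaSt mice Relb was at 5.87, 6.08 and 3.52 CPM after PBS and at 8.57, 10.9, 8.11, 11.8 and 9.39 CPM after CBE. These groups did not overlap either, but the log2 fold change of 0.89 ± 0.31 did not pass the test (adjusted p = 0.0854). It passed without WT + PBS replicate 1 (adjusted p = 0.0354) and without WT + PBS replicate 3 (adjusted p = 0.0361), libraries that enter this comparison only through the shared estimate of the spread and the filter.

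The mRNA levels of the alternative-route subunits were set against those of the classical route within each library. In WT mice the ratio of Nfkb2 to Nfkb1 was 0.185 ± 0.0742 (SD, n = 3) after PBS and 0.515 ± 0.127 (n = 3) after CBE. In MyTrMaSt mice it was 0.201 ± 0.0527 (n = 3) after PBS and 0.385 ± 0.0825 (n = 5) after CBE. Every CBE library had a higher ratio than every PBS library of its genotype, and in both genotypes. The ratio of Relb to Rela went from 0.175 ± 0.0605 to 0.387 ± 0.0426 in WT mice and from 0.128 ± 0.0328 to 0.238 ± 0.0424 in MyTrMaSt mice, again with no overlap between CBE and PBS within a genotype. No test was run on these ratios.

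Nfkbia (chr12:55489410-55492647, − strand, mm10) encodes IκBα, the inhibitor that is degraded and resynthesised in each round of signalling, and it was the most abundant member in every group. It was at 109, 107 and 84.8 CPM in WT + PBS and at 187, 233 and 205 CPM in WT + CBE, a log2 fold change of 1.06 ± 0.19 (adjusted p = 0.000841). In MyTrMaSt mice it was at 74.2, 52.6 and 54.2 CPM after PBS and at 98.2, 144, 132, 129 and 101 CPM after CBE, a change of 1.0 ± 0.17 (adjusted p = 0.00128). The CBE and PBS libraries did not overlap in either genotype. The difference between these changes was -0.05 on the log2 scale (95% interval -0.58 to 0.48; adjusted p = 0.948). The MyTrMaSt + PBS libraries also lay wholly below the WT + PBS libraries, by 0.73 ± 0.19 on the log2 scale, which did not pass the test (adjusted p = 0.114). Of all tested genes 10.1% lay wholly below in that comparison, and its groups also differ in sex, since Xist was counted in all MyTrMaSt + PBS libraries and in none of WT + PBS. Of the summed CPM of the 9 members Nfkbia gave 52.3% after PBS and 53.9% after CBE in WT mice, and 41.2% and 52.6% in MyTrMaSt mice.

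Nfkbie (chr17:45555703-45563169, + strand, mm10) encodes IκBε, an inhibitor that responds more slowly than IκBα. In WT + PBS it was at 8.12, 9.12 and 2.53 CPM and in WT + CBE at 16.3, 17.4 and 19.3 CPM. The lowest WT + CBE library was above the highest WT + PBS library, and the log2 fold change was 1.40 ± 0.31 (adjusted p = 0.00632). In MyTrMaSt mice Nfkbie was at 8.63, 11.6 and 9.86 CPM after PBS and at 8.18, 8.26, 8.51, 8.86 and 8.61 CPM after CBE. The MyTrMaSt + CBE libraries were close to each other, with 4 of the 5 below the lowest MyTrMaSt + PBS library, and the log2 fold change was -0.25 (95% interval -0.81 to 0.31; adjusted p = 0.603). Nfkbie was the only member with a negative value here. The value in WT mice rested in part on WT + PBS replicate 3, the library with 6 counts, and was 1.0 without it (adjusted p = 0.0199) and 1.95 without WT + PBS replicate 2 (adjusted p = 0.00244).

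Nfkbiz (chr16:55811375-55838899, − strand, mm10) encodes IκBζ, a nuclear IκB protein that is induced through MyD88 and is needed for a set of late target genes. It was at 0, 1.11 and 4.22 CPM in WT + PBS, from 0, 4 and 10 counts, and at 7.27, 5.16 and 6.63 CPM in WT + CBE. The groups did not overlap. The summed counts, 47 after CBE and 14 after PBS, gave a ratio of 3.30 with a 95% counting interval of 1.78 to 6.48, which covers counting error only. The log2 fold change of 1.68 ± 0.55 did not pass the test (adjusted p = 0.0580). Leaving out WT + PBS replicate 3 gave 2.90 (adjusted p = 0.00837), and DESeq2 and limma voom called it (adjusted p = 0.0427 and 0.0294). In MyTrMaSt mice Nfkbiz was at 2.07, 1.06 and 2.82 CPM after PBS and at 3.90, 2.63, 2.43, 4.43 and 1.57 CPM after CBE. These groups overlapped, and the log2 fold change was 0.61 (95% interval -0.48 to 1.70; adjusted p = 0.511).

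Bcl3 (chr7:19808462-19822770, − strand, mm10) was at 0.902, 1.11 and 1.27 CPM in WT + PBS, from 1 to 4 counts per library, and at 19.8, 17.4 and 18.1 CPM in WT + CBE. The log2 fold change was 3.98 ± 0.40 (adjusted p = 1.19e-06). The summed counts were 135 after CBE and 8 after PBS, a ratio of 16.6 with a 95% counting interval of 8.17 to 39.2. In MyTrMaSt mice Bcl3 was at 0.691, 1.59 and 1.41 CPM after PBS and at 8.96, 9.01, 6.48, 15.3 and 9.00 CPM after CBE. The log2 fold change was 2.89 ± 0.36 (adjusted p = 3.95e-05), and the summed counts, 117 and 12, gave a ratio of 7.56 (95% counting interval 4.17 to 15.0). In both PBS groups Bcl3 was the member with the lowest mean level, and in both CBE groups it was the fifth of 9. Exons of Bcl3 overlap those of Gm16175 on the opposite strand, and whether reads of Gm16175 enter the counts of Bcl3 was not tested. MyTrMaSt + CBE replicate 4, the library without Xist, was the highest of its group, and the log2 fold change without it was 2.69 (adjusted p = 3.49e-05).

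Tnfaip3 (chr10:19000910-19015657, − strand, mm10) encodes a ubiquitin-editing enzyme that shuts off signalling above IKK. It was at 5.41, 4.14 and 5.48 CPM in WT + PBS and at 11.6, 13.1 and 15.1 CPM in WT + CBE. The WT groups were separated, and Tnfaip3 rose by 1.42 ± 0.30 on the log2 scale (adjusted p = 0.00476). In MyTrMaSt mice it was at 3.11, 6.34 and 4.58 CPM after PBS and at 3.90, 7.14, 5.27, 5.42 and 5.87 CPM after CBE. Only replicate 2 of the MyTrMaSt + CBE libraries exceeded the highest MyTrMaSt + PBS library, and the log2 fold change was 0.21 (95% interval -0.39 to 0.81; adjusted p = 0.702).

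**Figure D2:**
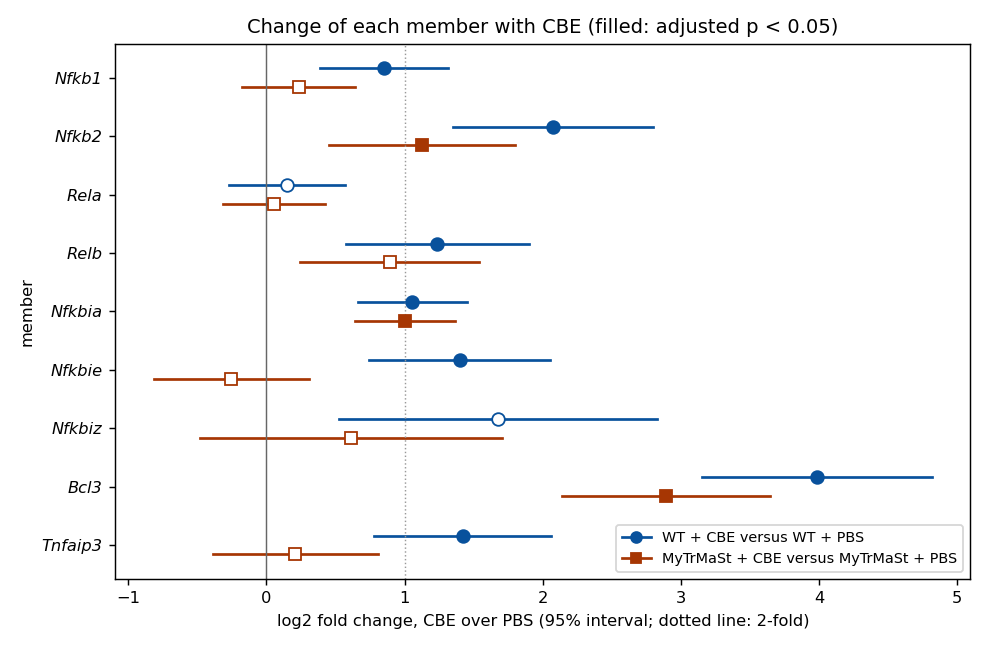
Log2 fold change of each member with CBE in WT (circles) and MyTrMaSt mice (squares), with 95% intervals from the edgeR fit and filled symbols for an adjusted p below 0.05. The WT value is the higher one for each member, from 0.15 for Rela to 3.98 for Bcl3, while the 2 intervals of most members overlap.

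The WT groups differ in sex. With a term for Xist expression in the fit, 4 members were called in WT mice, namely Bcl3, Nfkb2, Nfkbia and Relb, and the genes called in either direction over the whole table fell from 1255 to 672. Nfkbie (log2 fold change 1.41, adjusted p = 0.0593), Tnfaip3 (1.37, adjusted p = 0.0656) and Nfkb1 (0.61, adjusted p = 0.259) then missed the threshold. With the WT libraries of at most 1 Xist count, which leave WT + CBE replicate 2 alone against the 3 WT + PBS libraries, 3 members and 486 of 12419 genes were called, and the log2 fold changes were 3.89 for Bcl3, 2.20 for Nfkb2 and 1.22 for Nfkbia. That fit assumes that the lone library varies like those of the other groups. With a model of the WT libraries alone, 493 of 11057 genes were called, with 4 members among them, Bcl3, Nfkb2, Nfkbia and Tnfaip3. Calls over the whole table also fell in these fits, and why the members lost theirs was not tested. In MyTrMaSt mice the Xist covariate left the calls of Bcl3 and Nfkbia, and Nfkb2 was at an adjusted p of 0.0636.

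Whether CBE changed the members differently in the 2 genotypes was tested by the genotype by treatment interaction, the log2 fold change in MyTrMaSt mice minus that in WT mice. None of the 9 members passed by edgeR, against 0.489% of all tested genes. At an unadjusted p below 0.05 there were 2 members, Nfkbie and Tnfaip3, against 12.5% of all tested genes. All 9 estimates were negative, with a median of -0.95, or -0.62 without Bcl3 and Nfkbiz. The values of the members share libraries and are not independent of each other. Nfkbie had the lowest estimate, -1.65 ± 0.41 (95% interval -2.51 to -0.79; adjusted p = 0.110). DESeq2 called it (adjusted p = 0.0272), and so did edgeR without WT + PBS replicate 1 (adjusted p = 0.0460) or without WT + PBS replicate 2 (adjusted p = 0.0285), while the highest adjusted p over all alternatives was 0.650. Tnfaip3 followed with -1.21 ± 0.42 (95% interval -2.09 to -0.33; adjusted p = 0.273). For Bcl3 the interval was -2.44 to 0.26, for Nfkbiz -2.70 to 0.57, for Nfkb2 -1.97 to 0.07 and for Nfkb1 -1.23 to 0.00257. These intervals hold both no difference and a change in MyTrMaSt mice that is less than one in WT mice by more than 2-fold. Relb (-1.29 to 0.60) and Rela (-0.65 to 0.46) had intervals on both sides of 0. The WT groups differ in sex, which enters this test too. With the Xist covariate none of the members passed, and 9 genes were called instead of 58. The estimates then ran from -1.67 for Nfkbie to -0.16 for Rela. Nfkb1 went from -0.62 to -0.32 and Bcl3 from -1.09 to -1.56.

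The 2 CBE groups were then compared directly. This comparison shares its libraries with those above. Any difference in background strain cannot be told apart from genotype in it. It can also hold differences that were there after PBS. The log2 differences of MyTrMaSt + PBS from WT + PBS were -0.73 for Nfkbia and -0.68 for Relb. They were -0.03 for Tnfaip3, 0.15 for Bcl3 and 0.61 for Nfkbie, and none of these passed the test. All 9 members were lower in MyTrMaSt + CBE than in WT + CBE, and for all 9 the groups did not overlap, which held for 6.02% of all tested genes. Of the 9, 5 passed the test (4 of the 7 without Bcl3 and Nfkbiz), against 2.35% of all tested genes called lower. These were Tnfaip3 (log2 fold change -1.24 ± 0.25, adjusted p = 0.00794), Nfkbie (-1.04 ± 0.26, adjusted p = 0.0345), Relb (-1.03 ± 0.26, adjusted p = 0.0452), Bcl3 (-0.94 ± 0.24, adjusted p = 0.0415) and Nfkbia (-0.79 ± 0.16, adjusted p = 0.00755). Nfkb2 was at -1.0 ± 0.27 (adjusted p = 0.0556), Nfkbiz at -1.11 ± 0.44 (adjusted p = 0.380), Nfkb1 at -0.61 ± 0.19 (adjusted p = 0.140) and Rela at -0.32 ± 0.18 (adjusted p = 0.771). On leaving out single libraries, the number called ran from 1, without WT + CBE replicate 2 or 3, to 7, without WT + PBS replicate 1. None was called by edgeR with libraries of one sex within each genotype, where 6 were at an unadjusted p below 0.05 and all 9 estimates were negative. Sex and genotype cannot be told apart in that fit, which holds 1 WT + CBE library, and the calls over all genes fell from 301 to 119. With the Xist covariate the same 5 members were called. With the replicate block 2 were called, Bcl3 and Tnfaip3. Among the fits without a single library, Tnfaip3 lost its call in 1 (WT + CBE replicate 3, adjusted p = 0.0519) and Nfkbia in 1 (WT + CBE replicate 2, adjusted p = 0.0777), whereas Relb and Nfkbie each lost theirs on leaving out any of 9 of the 14 libraries and Bcl3 of 10.

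After PBS the genotypes differed in none of the 9 members by edgeR, with 22 of all tested genes (0.186%) called, or 467 without WT + PBS replicate 2. At an unadjusted p below 0.05 there was 1 member, against 16.8% of all tested genes. That member was Nfkbia, described above, which DESeq2 called (adjusted p = 0.0240) among 268 genes in all. The other log2 differences of MyTrMaSt + PBS from WT + PBS ran from -0.68 for Relb (95% interval -1.43 to 0.06) to 0.61 for Nfkbie (95% interval -0.06 to 1.28). Sex, and any difference in background strain, cannot be told apart from genotype in this comparison.

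The order of the members by level was partly the same in all 4 groups. Nfkbia was highest, followed by Rela and Nfkb1, and the library ranges of these 3 did not touch each other or those of the next member. Below them the ranges of most neighbours overlapped. In WT + PBS the mean levels went on with Relb, Nfkbie, Tnfaip3, Nfkb2, Nfkbiz and Bcl3, and in WT + CBE with Relb, Bcl3, Nfkbie, Nfkb2, Tnfaip3 and Nfkbiz, of which only Nfkbiz stood apart from its neighbour. The 9 members summed to 192 ± 28.7 CPM (n = 3) after PBS and 386 ± 22.3 CPM (n = 3) after CBE in WT mice. In MyTrMaSt mice the sums were 146 ± 16.4 CPM (n = 3) and 229 ± 15.4 CPM (n = 5). Much of these sums is Nfkbia and Rela.

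Markers of cell types were followed beside the members, and not all moved in the same direction. Of all tested genes 6.7% were called higher with CBE in WT and 5.32% in MyTrMaSt mice, and 3.89% lower in WT mice. All 12 markers of microglia and myeloid cells were listed, and 10 were called higher with CBE in each genotype. Their summed level in WT mice was 616 to 887 CPM after PBS and 3275 to 3784 CPM after CBE. In MyTrMaSt mice it was 528 to 573 CPM after PBS and 1807 to 2033 CPM after CBE. It was thus in the same order of groups as the sum of the members. Astrocyte markers summed to 2945 to 3517, 4049 to 4443, 3437 to 3859 and 4480 to 4853 CPM in the PBS and CBE groups of WT and then of MyTrMaSt mice, an order kept for the sums that follow, with 3 of 8 called higher and 1 lower in WT mice and 3 higher in MyTrMaSt mice. The sums of oligodendrocyte markers were 17239 to 20494, 10467 to 13602, 17106 to 20363 and 12889 to 17143 CPM, with 5 of 8 called lower in WT mice and none in MyTrMaSt mice. Neuron markers summed to 4374 to 4951, 3683 to 3912, 4972 to 5888 and 4035 to 4778 CPM, and 3 of 8 were called lower in WT and 1 in MyTrMaSt mice. Endothelial markers summed to 199 to 296, 173 to 193, 194 to 212 and 145 to 213 CPM, and of the 7 tested none was called in WT mice and 1 was lower in MyTrMaSt mice. Of 13 markers of blood leukocytes 4 were listed, with sums of 3.87 to 16.9 CPM in the 14 libraries. The part of these cell types in the changes of the members was not tested.

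**Figure D3:**
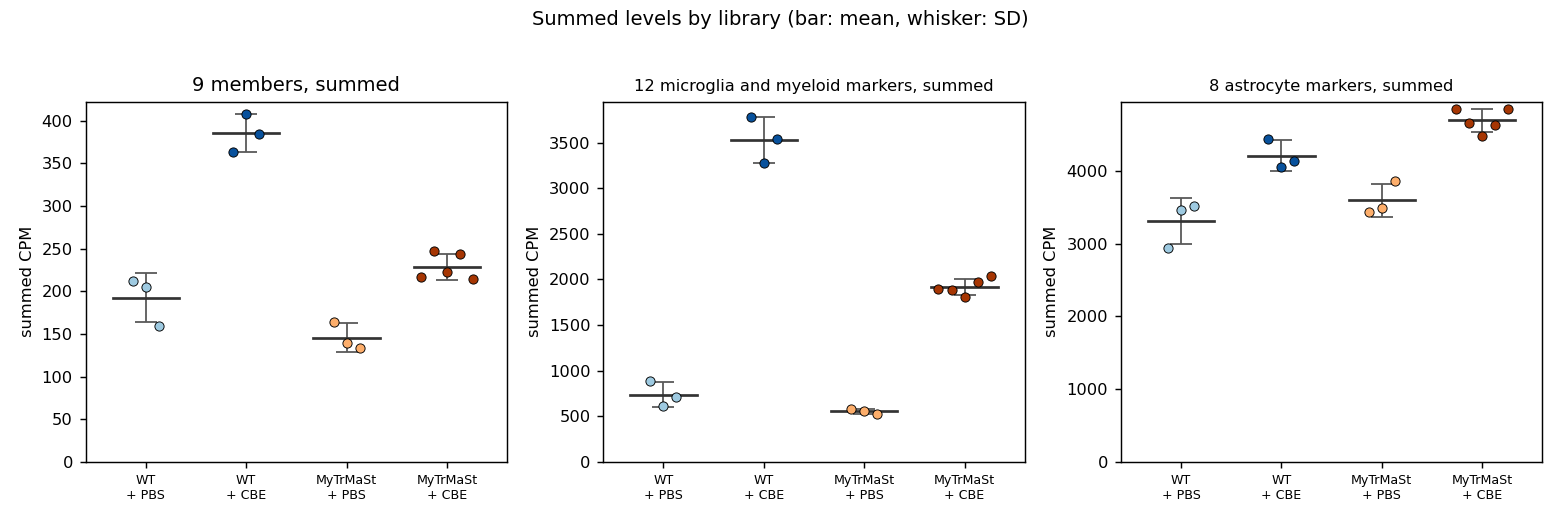
Summed CPM (linear axes from 0) of the 9 members, of 12 microglia and myeloid markers and of 8 astrocyte markers in the 14 libraries, with points for libraries, bars for means and whiskers for SD. The member sum and the microglia sum are highest in WT + CBE and second in MyTrMaSt + CBE, and the astrocyte sum is highest in MyTrMaSt + CBE.

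The genes around the members in the pathway were followed as 4 lists. These lists were drawn up with earlier results of these data known, so their counts are descriptions. Genes that are low in every group were dropped by the filter, while genes low after PBS could pass through a CBE group, so the counts below depend on the filter. Of 20 receptors that signal to NF-κB 10 were tested, and 7 were called higher with CBE in WT mice and 7 in MyTrMaSt mice, with no receptor called lower, against 6.7% and 5.32% of all tested genes called higher. Tlr1 and Tlr13 had under 10 counts in every PBS library, so they passed the filter through a CBE group. Tlr2 was low after PBS as well. The counts of 7 were not taken without these genes, so beside the shares of all genes they are descriptions only. Tlr2, the receptor for bacterial lipoproteins, went from 2.41 ± 0.80 to 44.6 ± 2.64 CPM in WT mice (log2 fold change 4.06) and from 2.07 ± 0.89 to 11.2 ± 3.95 CPM in MyTrMaSt mice (2.38). Cd14, a coreceptor of Toll-like receptors, rose by 3.06 in WT and by 3.09 in MyTrMaSt mice on the log2 scale. Tnfrsf1a, the main receptor for tumor necrosis factor, rose by 2.22 and 1.60 and Ltbr, the lymphotoxin β receptor, by 1.61 and 1.23. Tlr13, a sensor of bacterial RNA, rose by 3.15 and 2.23. None of the receptors passed the interaction test, against 0.489% of all tested genes. At an unadjusted p below 0.05 there were 2 receptors, against 12.5% of all tested genes.

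The kinases and adaptors between receptors and NF-κB had 1 call. Of 35 genes 26 were tested, and the only one called was Birc3, a ubiquitin ligase of the tumor necrosis factor receptor complex. It went from 1.62 ± 1.44 to 8.37 ± 1.06 CPM in WT mice (log2 fold change 1.99, adjusted p = 0.0264). Of all tested genes 6.7% were called higher in WT mice. At an unadjusted p below 0.05 there were 8 of the 26 in WT mice, against 24.7% of all tested genes. In MyTrMaSt mice none was called, with 7 at an unadjusted p below 0.05, against 23.7% of all tested genes. The median log2 fold change was 0.37 in WT and 0.22 in MyTrMaSt mice. Chuk, which encodes the kinase IKKα, was at 6.50 ± 2.52 CPM in WT + PBS and 12.6 ± 2.69 CPM in WT + CBE (log2 fold change 0.81, adjusted p = 0.0768), and at 11.0 ± 2.11 and 9.95 ± 0.66 CPM in MyTrMaSt mice (-0.13, adjusted p = 0.774). Ikbkb, which encodes IKKβ, had log2 fold changes of -0.13 (adjusted p = 0.794) and -0.37 (adjusted p = 0.295). Ikbkg, the regulatory subunit, had 1 to 13 counts per library and did not pass the filter.

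Of 20 other IκB proteins and negative regulators 18 were tested, with 2 called higher in WT mice against 6.7% of all tested genes, and 2 higher (against 5.32%) and 1 lower in MyTrMaSt mice, and median log2 fold changes of 0.15 and 0.01. Nfkbib, which encodes IκBβ, was at 107 ± 36.8 CPM in WT + PBS and 82.8 ± 17.4 CPM in WT + CBE (log2 fold change -0.35, adjusted p = 0.417), and its value in MyTrMaSt mice was 0.10 (adjusted p = 0.830). Nfkbid, another nuclear IκB protein, had at most 6 counts in a library and was not tested. The genes called in WT mice were Usp18, which limits interferon signalling (log2 fold change 4.41), and Zc3h12a, an RNase that degrades inflammatory mRNAs (3.72), both with under 10 counts in every PBS library. In MyTrMaSt mice Zc3h12a (2.17) and Tnip2, a partner of the Tnfaip3 product (0.97), were higher and Rnf11, another partner of that product, fell by 0.72 on the log2 scale.

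Known NF-κB target genes were the longest list. Of 39 genes 24 were tested, and 16 were called higher with CBE in WT mice and 7 in MyTrMaSt mice, with none called lower, against the same 6.7% and 5.32%. Of the 24, 8 had under 10 counts in every PBS library, Ccl2, Ccl3 and Ccl4 among them, so they passed the filter through a CBE group. The counts of 16 and 7 were not taken without these 8, so beside the shares of all genes they are descriptions only. The chemokine Ccl3 went from 1.04 ± 0.30 to 61.7 ± 9.45 CPM in WT mice and from 1.34 ± 0.27 to 54.4 ± 13.9 CPM in MyTrMaSt mice. Ccl4, a related chemokine, went from 1.39 ± 0.37 to 41.5 ± 7.19 CPM and from 0.50 ± 0.43 to 25.9 ± 6.23 CPM, and Csf1, a growth factor of microglia, rose by 1.65 and 1.14 on the log2 scale. Ccl2, a chemokine for monocytes, was at 67.8 ± 7.77 CPM in WT + CBE and 8.97 ± 6.57 CPM in MyTrMaSt + CBE. Of the targets, 3 passed the interaction test, against 0.489% of all tested genes, and all 3 changed less in MyTrMaSt mice.

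Those 3 were Ccl5, Cxcl10 and Lcn2. Ccl5, a chemokine for lymphocytes, went from 4.78 ± 0.60 to 136 ± 3.12 CPM in WT mice and was at 1.22 ± 0.63 and 1.09 ± 0.75 CPM in MyTrMaSt mice, an interaction of -4.89 on the log2 scale (adjusted p = 0.00310). Cxcl10, which is also induced by interferon, went from 5.46 ± 1.15 to 408 ± 120 CPM in WT mice and was at 1.99 ± 1.63 and 6.04 ± 3.76 CPM in MyTrMaSt mice (-4.70, adjusted p = 0.0111). Lcn2, which encodes an iron-binding protein released in inflammation, went from 3.07 ± 1.96 to 550 ± 187 CPM in WT mice and from 3.43 ± 3.73 to 22.0 ± 4.10 CPM in MyTrMaSt mice (-4.84, adjusted p = 0.00847). Between the CBE groups 11 of the 24 targets were called lower in MyTrMaSt mice, 2 of the 10 receptors and 2 of the 18 regulators. Of all tested genes 2.35% were called lower there. Of the 26 kinases and adaptors none was called lower. At an unadjusted p below 0.05 there were 3 of the 26, against 8.06% of all tested genes.

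**Figure D4:**
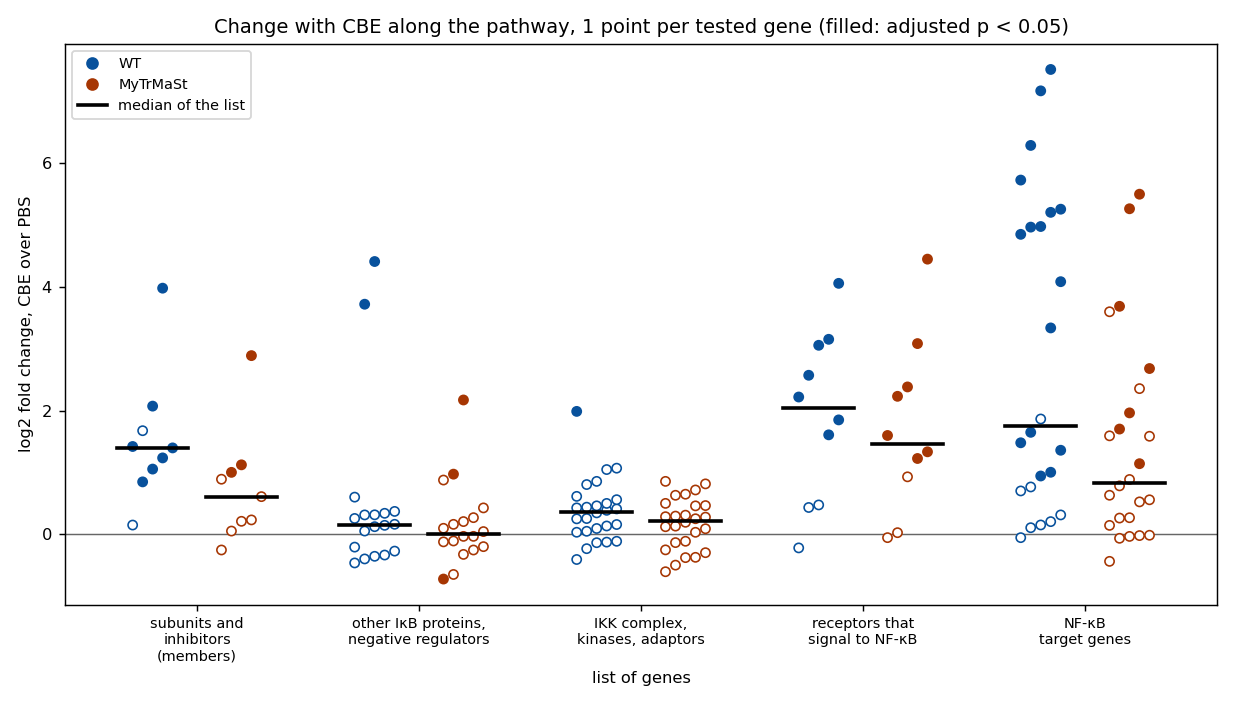
Log2 fold change with CBE of each tested gene in the members and in 4 lists of pathway genes, in WT and MyTrMaSt mice, with filled points for an adjusted p below 0.05 and bars for the median of a list. The medians of the regulators and of the kinases and adaptors lie between 0.01 and 0.37. The receptors and targets include genes that passed the filter on low counts only through a CBE group, so their medians depend on it.

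For each member the genes with the most similar level across the 14 libraries were looked up by Pearson correlation of log2 CPM. The libraries share treatment, genotype, depth and cell makeup, so these values only describe likeness. Bcl3 was closest to Cnn3 (r = 0.99), Hvcn1 (0.99) and Slc15a3 (0.98), and Nfkb2 to Pctp (0.97), Irf8 (0.96) and Tlr2 (0.96). Nfkbia was closest to Ifitm2 (0.95), Tspo (0.94) and Fth1 (0.94), and Relb to Pnpla7 (0.95), Mvp (0.93) and Cstb (0.93). The nearest genes of Tnfaip3 were Bst2 (0.91), Oas1b (0.91) and Fcgr1 (0.90), and those of Nfkb1 were Ptx4 (0.93), Eif2ak2 (0.92) and Ube2c (0.90). Nfkbiz had Gab2 (0.94), Utp14a (0.91) and Etv6 (0.91), Nfkbie had Tsacc (0.88), Col2a1 (0.83) and Nasp (0.83), and Rela had Mzt2 (0.84), Selo (0.81) and 6330416G13Rik (0.81). The 9 members thus had different nearest genes, with none named for more than 1 member.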

How the data were processed

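Bulk MARSseq libraries were made from brain RNA, sequenced on an Illumina NextSeq and mapped to mm10 with hisat 0.1.6, keeping uniquely mapping reads. The submitters' processing notes also name cutadapt and HTSeq, without versions. The deposited table holds raw counts per gene that the authors did not normalize. Their annotation, use of strand and use of molecular identifiers are not given in the sources used here. The authors' normalized values and fold changes with p values were not used.

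The quasi-likelihood test of edgeR 4.0.16 (R 4.3.3) was run on all 14 libraries after filterByExpr and TMM scaling, fitting 1 mean per group, and p values were adjusted by Benjamini-Hochberg over 11852 genes. SE is the log2 fold change divided by the root of F. The procedure was tested on simulated data. Alternatives were RLE factors, DESeq2 1.42.0, limma 3.58.1 voom, other filters, only the groups compared, the Xist level as a covariate, a replicate block, leaving out each library, other thresholds and, added after seeing the data, libraries of one sex.

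Members and lists were chosen with earlier results of these data known. The genes named were the members, the 4 deleted genes, Nfkbib, Nfkbid, Chuk, Ikbkb and Ikbkg, from each pathway list the 5 called genes with the smallest p in each genotype and those called in the interaction, and for each member the 3 most alike genes. Psd, AC114539.1 and Gm16175 were named for their overlap, and Tlr1 for its low counts, after values were seen. Nothing says that the mice came from separate litters. The p values set group differences against the spread between these mice, and may not hold for other litters. All 19 pairs of same-group libraries differed by more than sampling noise.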

Additional observations from a re-analysis of the deposited data

Results flagged for a closer look

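The level of Bcl3 in MyTrMaSt + CBE replicate 4 stood apart from its group. It was 15.3 CPM, and the other 4 libraries were at 6.48 to 9.01 CPM. The gap to the nearest library was 0.712 of the whole range of the group, just above the limit for 5 values in Dixon's test. The 9 members were looked at in this group, which is the only one with more than 3 libraries, and chance alone marks about 1 group in 20. This library is also the only one of its group without Xist counts. Its part in the value was not tested. The log2 fold change of Bcl3 with CBE in MyTrMaSt mice was 2.89 with this library and 2.69 without it.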

How the results depend on the processing

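In WT mice 7 members were called, and the number was 2 of the 3 members left with at least 10 counts in every library, 4 with the Xist covariate, 4 with only the groups compared, 3 with libraries of one sex, and 6 to 7 on leaving out each library. In MyTrMaSt mice it was 3, with 1 at at least 10 counts and 2 to 4 on leaving out a library. The interaction gave 0, DESeq2 1, and leaving out a library 0 to 1. Between the CBE groups it was 5, with 1 at at least 10 counts, 2 with the replicate block, 0 with libraries of one sex (where sex and genotype cannot be told apart), 3 with a 2-fold minimum and 1 to 7 on leaving out a library. After PBS it was 0, DESeq2 1, and 0 on leaving out a library. The calls over all genes moved too. In WT mice they were 1255, and 690 of 8312 tested genes at at least 10 counts, 672 with the Xist covariate, 493 with only the groups compared and 486 with one sex. In MyTrMaSt mice they were 919, with 641 at at least 10 counts, 1735 with only the groups compared, 715 with the Xist covariate, 521 with one sex, 377 with the block and 437 to 2246 on leaving out a library, the highest without WT + PBS replicate 1. Between the CBE groups they were 301, with 79, 218 with the block and 119 with one sex, and DESeq2 gave 133 for 58 in the interaction and 268 for 22 after PBS. The causes were not tested, except that the stricter filter tests fewer members. Replicate numbers did not pair the libraries (correlations of same-numbered deviations -0.189 to 0.178), and with the block 6 members were called in WT mice and 2 in MyTrMaSt mice. Between the PBS groups, values near 0 changed sign. Nfkb1 was -0.000703 without the filter, -0.28 with the Xist covariate, -0.0199 with the block, -0.00389 by DESeq2, -0.00702 by voom and -0.12 to 0.11 on leaving out a library. Nfkb2 was 0.0432 with the Xist covariate and -0.32 to 0.55 on leaving out a library, Nfkbiz 0.0687 with the covariate, 0.32 by voom and -0.51 to 1.16, Bcl3 -0.10 to 0.40, and Tnfaip3 0.00423 with the block and -0.34 to 0.18. On leaving out a library the change of Rela was -0.0254 to 0.34 in WT and -0.00666 to 0.14 in MyTrMaSt mice, and the interaction was -0.28 to 0.0868 for Rela, -0.67 to 0.0328 for Relb and -0.15 to 0.12 for Nfkbia. Nfkbiz and Bcl3 had few counts after PBS, and the part of depth in their values was not tested.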
